A study of Mus musculus with 12 samples.

Results

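Lipid-associated macrophages are tissue macrophages that take up and break down lipid-rich debris, and they are known from obese fat, atherosclerotic plaques and tumors. They carry TREM2, a surface receptor that binds lipids and lipoproteins and signals through the adaptor DAP12 (*Tyrobp*). Ingested membrane is degraded in lysosomes, which are acidified by the V-ATPase proton pump and filled with cathepsin proteases, and the released cholesterol and fatty acids are stored, carried by fatty acid binding proteins, or exported onto apolipoprotein E. Typical genes of this state are *Gpnmb*, a membrane glycoprotein of lysosome-rich phagocytes, and *Spp1*, the secreted matrix protein osteopontin.

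Cells of this kind were looked for in single-cell RNA sequencing (scRNA-seq) of spontaneous breast tumors that arose in MMTV-PyMT mice, in which the mammary-active MMTV promoter drives the polyoma middle T oncogene. The deposited data held 12 samples in 4 groups of 3: CD11c+ cells and T cells, each from tumors of wild-type mice and of PAR2 G37I mutant mice. In the mutant, the receptor PAR2 (gene *F2rl1*) carries a point change that makes it resistant to cleavage by coagulation factor Xa, so that the receptor is present but this signal is lost. CD11c+ cells were the tumor-associated macrophages and dendritic cells taken from digested late-stage tumors with beads, and T cells were taken with CD4 and CD8 beads from mid-size tumors. All mice carried the PyMT transgene.

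A cell was counted as a *Gpnmb Spp1 Trem2* macrophage if it was in the CD11c-selected matrix, had at least 200 detected genes, carried at least 2 *Gpnmb*, 1 *Spp1* and 1 *Trem2* unique molecular identifiers (UMIs, each a counted RNA molecule), and carried 0 UMIs of the tumor cell gene *Epcam* and of the proliferation gene *Mki67*. In all, 429 of 11639 cells met the rule, which was 3.69% (95% exact binomial interval 3.35 to 4.04%). They were set against the other 6568 cells that carried at least 1 UMI each of the macrophage genes *Csf1r* and *C1qa*, and made up 6.13% (5.58 to 6.72%) of both groups together. Because the cells were chosen on measured values, every difference between the groups is given as a description, without a test. All intervals cover counting error only.

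The matrix pooled the 6 CD11c samples without a key that ties a cell barcode to a sample, so it was treated as 1 sample and wild-type and PAR2 G37I cells were not compared. The barcodes were stored as 6 alphabetical runs, and these runs are used below only to show how values varied within the matrix, because no run can be assigned to a mouse or a genotype. The number of *Gpnmb Spp1 Trem2* macrophages per run ranged from 8 to 193, and their share of the run's cells from 1.98 to 7.40% with a median of 2.38%. The run with 193 held 45.0% of them. Total UMIs per run ranged from 13314063 to 24231244 and cells per run from 360 to 2784, so depth per cell differed between runs. The run with 360 cells was the one with 8 *Gpnmb Spp1 Trem2* macrophages, and its cells were the deepest. Of the 11980 barcode sequences, 76 occurred more than once in the matrix.

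The cells held more RNA counts than other macrophages. Their median was 17336 UMIs and 3786 genes per cell, against 9133 UMIs and 2606 genes in the other macrophages, and the median mitochondrial share of UMIs was 3.39% against 4.86%. The part of depth in the differences below was not tested. All values are counts per group scaled to a common total of 1e+06 UMIs (CPM). After each cell was thinned to 5000 UMIs the rule found 370 of 7370 cells (5.02%), against 384 (5.21%) of the same cells at full depth. In thinned cells, 340 of 9186 genes tested were at least 2-fold higher and 786 at least 2-fold lower. Of these, 229 and 618 were among the 383 higher and 1326 lower genes given below.

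The label was set beside marker genes that the rule did not require of these cells. The macrophage genes *C1qb* and *C1qc* were detected in 95.8% and 93.9% of the cells, *Adgre1* (F4/80) in 84.1%. Both *Csf1r* and *C1qa*, which the rule used to pick the comparison cells, were carried by 367 of 429 (85.5%). Of the 2 label markers outside the rule, *Atp6v0d2*, the alternative d subunit of the V-ATPase, was at 157 CPM against 12.7 CPM in the other macrophages, a ratio of 12.4 (11.4 to 13.5). Over the 6 runs it had a lowest value of 69.7, a median of 153 and a highest of 222 CPM in these cells, and 6.04, 11.6 and 20.03 CPM in the others, so the groups did not overlap. *Arg1*, the arginine-degrading enzyme arginase 1, was at 680 against 55.5 CPM, a ratio of 12.2 (11.8 to 12.7). Its run values were 79.7 to 1113 CPM with a median of 544 in these cells and 5.39 to 104 CPM in the others, and the groups overlapped, since the run with 8 cells lay under the highest run of the others. Both label markers were thus higher. They were chosen with earlier results of these data known, so this describes the label and does not test it. None of the 79 cells gated as T cells carried a UMI of either, but these held only 662346 UMIs in all. That is too few for the absence to measure free RNA.

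The 3 genes of the rule stood, as it required, above the other macrophages: *Gpnmb* at 2005 against 129 CPM, *Spp1* at 25116 against 1931 CPM and *Trem2* at 1429 against 307 CPM. *Spp1* alone was 2.51% of the cells' UMIs, and these 429 cells held 53.2% of all *Spp1* and 61.5% of all *Gpnmb* UMIs in the matrix. *Gpnmb* lies at chr6:49036546-49070929, *Spp1* at chr5:104435118-104441050 and *Trem2* at chr17:48346401-48354147 of GRCm38.

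Across 11173 genes with at least 100 UMIs over both groups, leaving out the genes of the rule, 383 (3.43%) were at least 2-fold higher in the *Gpnmb Spp1 Trem2* macrophages and 1326 (11.9%) at least 2-fold lower. The median ratio over all of these genes was 0.943. Of the 383 higher genes, 269 were higher in each of the 6 runs (70.2%, against 9.85% of all genes tested), and of the 1326 lower genes 1021 were lower in each run (77.0%, against 21.0%). Below, "past 2-fold" means this threshold, and each gene list is to be read against 3.43% and 11.9%.

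**Figure D1:**
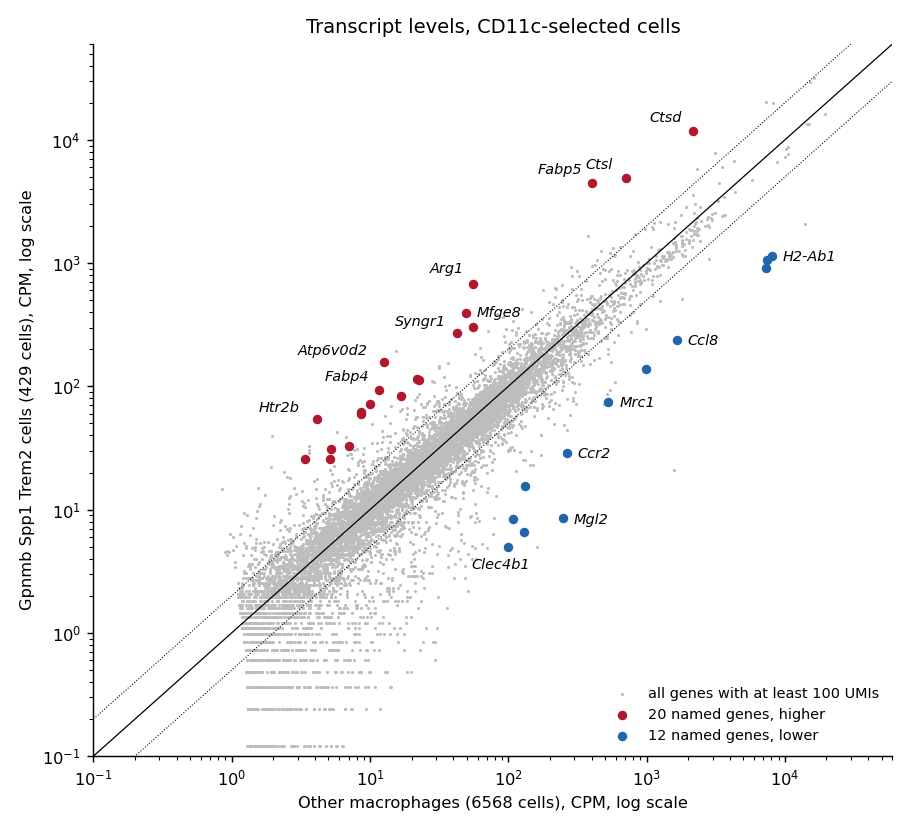
Each point is a gene, plotted by its CPM in the 6568 other macrophages (horizontal) and in the 429 *Gpnmb Spp1 Trem2* macrophages (vertical), both on log axes, with the lines of equality and of 2-fold difference. The named genes lie off the diagonal on both sides, with *Fabp5* and *Ctsl* above it at over 4000 CPM and the MHC class II gene *H2-Ab1* below it at 1141 CPM. The genes of the rule, and genes with 0 UMIs in either group, are not drawn.

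Among genes detected in at least 25% of either group, the largest ratio belonged to *Htr2b*, a serotonin receptor, with 54.4 against 4.12 CPM (ratio 13.2, 11.4 to 15.3) and run values of 42.6 to 75.6 against 1.76 to 8.17 CPM. *Atp6v0d2*, *Arg1* and the lipid carriers *Fabp5* and *Fabp4* followed, then *Mfge8*, a bridge between dying cells and phagocytes, at 7.97. All 20 of the highest-ranked genes, with ratios of 4.71 to 13.2, were higher in each of the 6 runs, and for 17 of them the run values of the 2 groups did not overlap. The exceptions were *Arg1*, *Mfge8* and the aldo-keto reductase *Akr1b8*. The genes were ranked on the counts of these same runs, and the share of all tested genes without overlap was not counted, so this only describes them. Others of the 20 were *Pdpn* (podoplanin), the creatine transporter *Slc6a8*, the secreted kinase *Fam20c* and the ubiquitin ligases *Rnf128* and *Fbxo32*. The collagenase *Mmp8* had a larger ratio, 20.4, at 39.7 against 1.94 CPM, but only 21.0% of the cells carried a UMI of it, under the 25% required for this ranking.

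Genes of lipid handling were mostly higher. Of 25 tested, 9 were past 2-fold higher and 0 lower, with a median ratio of 1.83. *Fabp5*, which ferries fatty acids through the cytosol, was at 4483 against 402 CPM (ratio 11.2), with run values of 3107 to 5964 (median 4850) against 199 to 601 CPM (median 356), far apart in all runs. *Fabp4*, its close relative, was at 93.9 against 11.6 CPM (8.10). The tetraspanin *Cd9* had a ratio of 3.24, the oxidized LDL receptor *Olr1* 2.98, the lipid droplet protein *Hilpda* 2.74, the lectin *Lgals3* 2.51, and the lipoprotein receptor *Lrp1* 2.48.

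The cholesterol export genes stayed under 2-fold but were higher in every run. *Apoe* was at 29224 against 15105 CPM (1.93), with runs of 24421 to 41811 against 11792 to 18824 CPM and no overlap. The exporters *Abca1* and *Abcg1* had ratios of 1.78 and 1.80, the lysosomal cholesterol carrier *Npc2* 1.85 and the lysosomal lipase *Lipa* 1.81, also without overlap. The fatty acid importer *Cd36* (1.90) and the lipoprotein lipase *Lpl* (1.83) were less uniform: *Cd36* was higher in 4 of 6 runs and *Lpl* in 5.

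**Figure D2:**
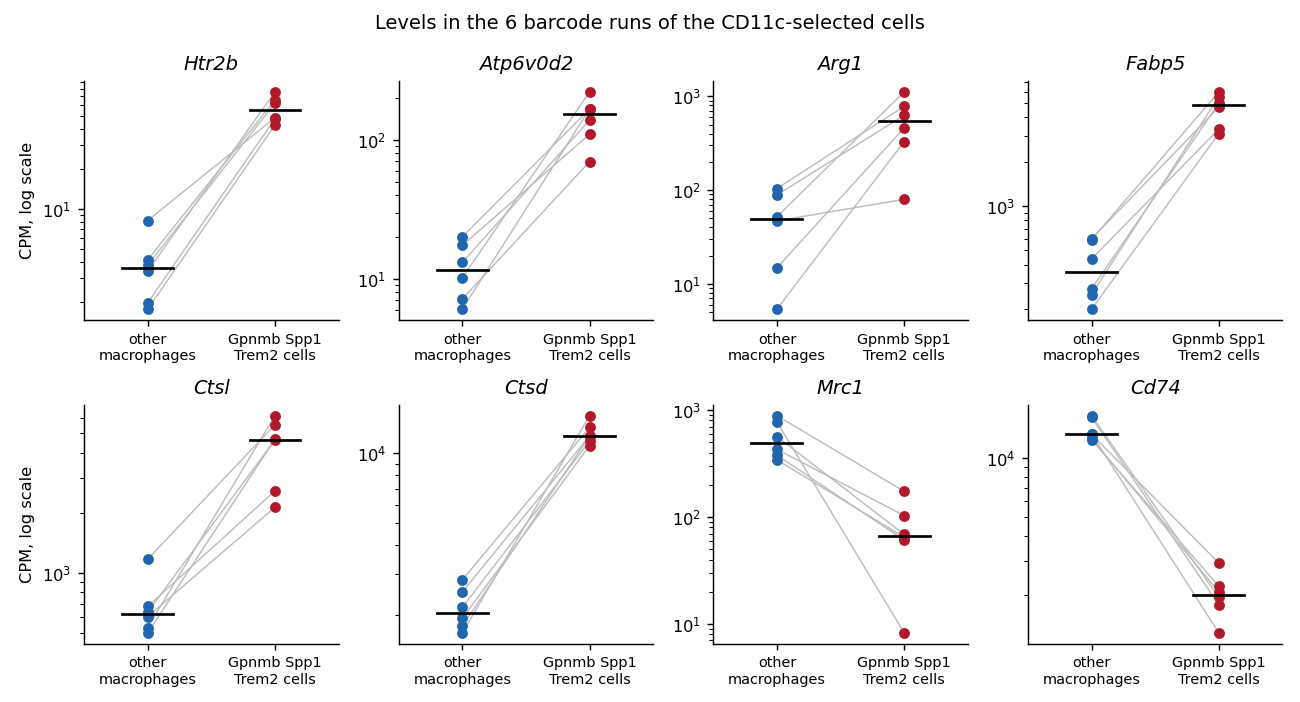
CPM of selected genes (log axis) in each of the 6 barcode runs, for the *Gpnmb Spp1 Trem2* macrophages and the other macrophages; each point is 1 run of the single pooled matrix, not a mouse, lines join the values of 1 run, and black bars are medians. The 2 groups separate for every gene shown except *Arg1*, where 1 run at 79.7 CPM lies among the runs of the other macrophages.

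Among the lysosomal proteases and their inhibitors, 6 of 16 tested were past 2-fold higher and 0 lower (median ratio 1.54). *Ctsl*, a cysteine protease of the lysosome, was at 4933 against 705 CPM (6.999), with runs of 2130 to 6143 (median 4655) against 499 to 1169 CPM (median 618). *Ctsd*, the main aspartic protease of the lysosome, was at 11787 against 2151 CPM (5.48), with runs of 10765 to 14477 (median 11830) against 1682 to 2845 CPM. Neither gene overlapped between the groups. *Ctsk*, the collagen-cleaving cathepsin of osteoclasts, was at 33.0 against 3.59 CPM (9.19), *Ctsb* had a ratio of 2.54, and the inhibitors *Cst7* and *Cstb* had 4.35 and 2.13. *Ctsc*, which activates granule proteases, went the other way at 0.636 and was lower in all 6 runs.

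The rest of the lysosome differed less. Of 28 tested lysosomal enzymes and membrane proteins, 2 were past 2-fold higher, *Cd68* (2.72) and the progranulin gene *Grn* (2.09), and 0 lower, with a median ratio of 1.46. Of 18 V-ATPase subunits only *Atp6v0d2* was past 2-fold, and the median was 1.23; its constitutive counterpart *Atp6v0d1* was at 177 against 168 CPM (1.06). Of 12 lysosomal transcription factors and nutrient-sensing regulators, only the Rag GTPase *Rragd* was past 2-fold (2.73, at 6.92 CPM). The *Rragd* call was lost when each cell was weighted equally. After thinning, 11 of the 12 genes had enough UMIs to be tested and 0 were past 2-fold. For *Rragd*, a lost call there cannot be told from too few UMIs.

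Many lysosomal genes carry near their start the site TCACGTG, which the transcription factors TFEB and TFE3 are known to bind. It was searched for, on either strand, in RefSeq promoter windows (GRCm38.p6, 250 bases before to 50 bases after the gene start), because the lysosomal genes of the results can be read against it. The site was present in at least 1 window of 1160 of 27025 genes (4.29%) and of 637 of 8748 genes tested here (7.28%). It was in 13 of the 45 genes with a window (28.9%) in the V-ATPase, lysosomal enzyme and cathepsin lists. Among the genes past 2-fold higher, 14 of 278 held it (5.04%), and among those lower 52 of 961 (5.41%). The windows of *Gpnmb*, *Ctsl* and *Cd63* held none. Below is 1 site each of 4 genes past 2-fold higher, the cathepsin *Ctsd*, the mannose-6-phosphate receptor *Igf2r* that delivers enzymes to lysosomes, the heparan-degrading enzyme *Naglu* and the peptidase *Dpp7*, and of 2 pump subunits that were not, with the site in capitals (TCACGTGA reads as the site on both strands), 5′ to 3′ on the gene's strand.
Ctsd, chr7:142387908-142387937, minus strand: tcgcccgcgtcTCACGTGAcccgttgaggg
Igf2r, chr17:12769737-12769766, minus strand: gaacgaggacgTCACGTGAgcaggaggcgg
Naglu, chr11:101070009-101070037, plus strand: caaccttcaggTCACGTGgcccgaggtcg
Dpp7, chr2:25356388-25356417, minus strand: ccgccagactaTCACGTGAtgctgccccgc
Atp6v0d1, chr8:105566050-105566079, minus strand: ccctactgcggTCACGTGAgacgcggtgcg
Atp6v1a, chr16:44139373-44139402, minus strand: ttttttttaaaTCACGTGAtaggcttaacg

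A match is a run of letters and not a measured binding site. The first base of the printed site lay 99 bases before the start in *Ctsd*, 49 in *Igf2r* and 74 in both *Naglu* and *Dpp7*, the windows of *Ctsd* and *Igf2r* held a further site 245 and 8 bases before the start, and the genes with the site included both genes past 2-fold and genes near equality.

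Iron, heme and antioxidant genes gave some of the most abundant differences. The ferritin light chain *Ftl1*, which stores iron, was at 19977 against 8192 CPM (2.44) and did not overlap between groups over the runs, and the heavy chain *Fth1* was at 31950 against 16310 CPM (1.96). Of 12 iron and heme genes, 3 were past 2-fold higher and 2 lower, and of 20 antioxidant genes 5 were higher and 0 lower, or 8 higher against comparison cells with 0 *Epcam* and *Mki67*. The glutathione transferases *Mgst1* (4.62) and *Gstm1* (3.07), the peroxiredoxin *Prdx6* (2.55) and the glutathione synthesis subunit *Gclm* (3.50) were among them. *Prdx1*, *Txn1* and *Prdx5* lay just under 2-fold at 1.96, 1.98 and 1.94.

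*Hmox1*, which breaks down heme, was 4.41-fold higher (1658 against 376 CPM) but varied widely, with run values of 371 to 3191 CPM (median 1280) against 298 to 581 CPM. Its run ratios reached from 0.94 to 9.98, so it was not higher in every run. The heme transporter *Slc48a1* had a ratio of 3.17. *Cd163*, the hemoglobin scavenger receptor, was at 0.849 against 28.8 CPM, 33.9-fold lower.

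Of 22 tested genes of sugar breakdown and the hypoxia response, 9 were past 2-fold higher and 0 lower, with a median of 1.98; because many sat near the threshold, the count was 12 without the run that held 45.0% of the cells and 13 of 21 in cells thinned to equal depth. *Egln3*, an oxygen sensor, had the highest ratio (5.29, at 14.9 CPM), followed by the mitophagy gene *Bnip3* (3.78), the cytokine *Mif* (2.75), the glycolytic enzyme *Pgam1* (2.42), the glucose transporter *Slc2a1* (2.18) and the angiogenic factor *Vegfa* (2.00). *Vegfa* was at 350 against 175 CPM, with runs of 275 to 423 against 69.3 to 235 CPM and no overlap. Not all glycolytic genes had ratios above 1: hexokinase 2 (*Hk2*), phosphofructokinase (*Pfkp*) and its regulator *Pfkfb3* were at 0.918, 0.734 and 0.700, each lower in 6 of 6 runs.

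For arginine and amino acid metabolism, 5 of 14 tested genes were past 2-fold higher and 0 lower. Beside *Arg1* these included its mitochondrial counterpart *Arg2* (86.0 against 22.4 CPM, 3.83) and the cationic amino acid transporter *Slc7a2* (3.63), neither of which overlapped between groups, and *Nos2* (2.45), which makes nitric oxide from the same amino acid but was detected in 4.90% of the cells. The polyamine enzyme *Odc1* was level at 1.04.

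Matrix genes were mixed. Of 16 tested, 4 were past 2-fold higher and 3 lower. *Mmp8* and the sheddase *Adam8* (602 against 177 CPM, 3.40) were higher in all runs, as was the protease inhibitor *Timp2* (2.29). *Mmp12*, the macrophage elastase, was at 941 against 403 CPM (2.34), with run values of 55.0 to 1223 CPM. It was lower in 1 run, the one with 8 cells. *Mmp9* was at 0.121 against 1.97 CPM, which was 1 UMI in these cells (ratio 0.0617, 0.00155 to 0.349). Of 11 genes of osteoclasts and cell fusion, 3 were higher (*Ctsk*, *Atp6v0d2* and *Itgb3*) and 4 lower, among them the fusion receptors *Dcstamp* (0.140) and *Ocstamp* (0.114), and the osteoclast phosphatase *Acp5* was at 1.10.

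Genes of the TREM2 signaling chain lay on both sides of equality. Of 14 tested genes of the pathway, 1 was past 2-fold higher (*Cst7*) and 2 lower (*Cd33* at 0.449 and *Axl* at 0.473), with a median of 0.974; without the run that held 45.0% of the cells, 2 were higher and 0 lower. The adaptor *Tyrobp* had a ratio of 1.47 without overlap, and the downstream kinase *Syk* and phospholipase *Plcg2* were at 0.685 and 0.686, both lower in 6 of 6 runs. Receptors for dying cells and debris split. Of 17 tested, 4 were past 2-fold higher and 5 lower: the scavenger receptor *Msr1* (364 against 92.3 CPM, 3.94) and the phagocytic kinase *Mertk* (2.12) stood with *Mfge8* and *Lrp1* on the higher side, and *Axl*, *Timd4* (TIM4), *Cd163*, *Mrc1* and *Cd209f* on the lower.

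**Figure D3:**
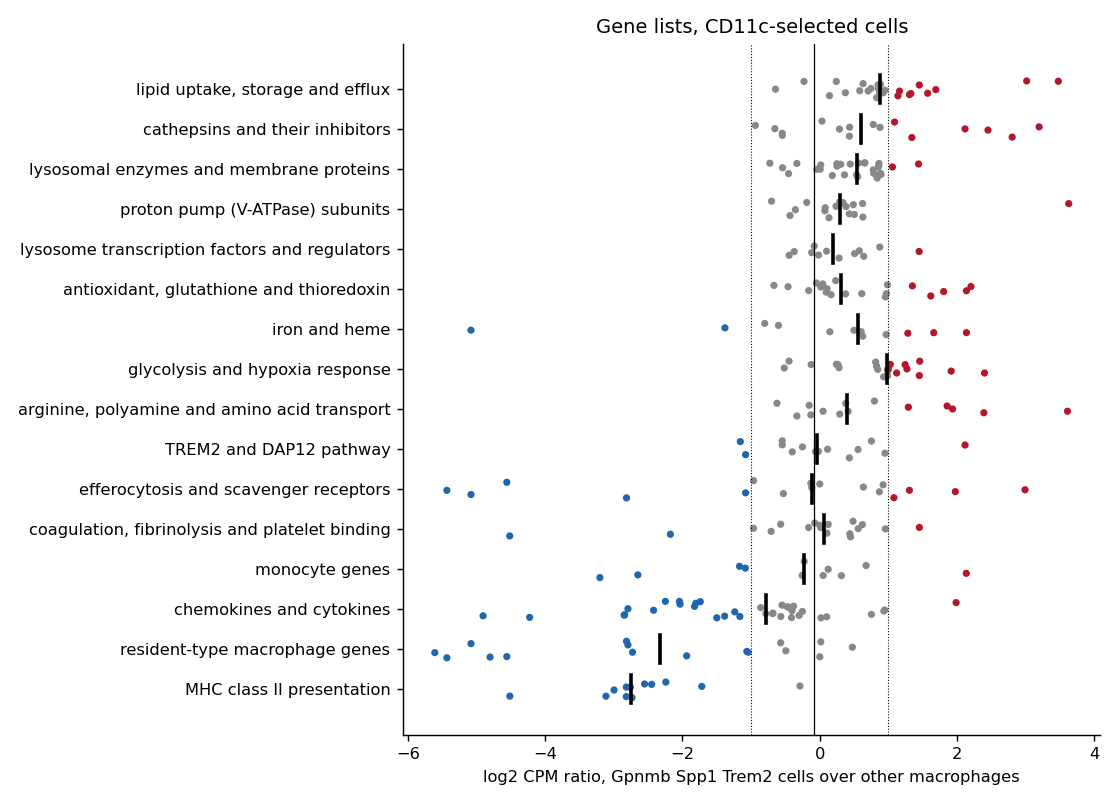
For each gene list, the points are the ratios of its tested genes (CPM in *Gpnmb Spp1 Trem2* macrophages over CPM in the other macrophages, log2 scale), short bars are list medians, dotted lines mark 2-fold and the solid line is the median of all genes tested. The lipid and glycolysis lists lie mostly to its right, whereas the MHC class II list (median 0.149) and the resident-type list (median 0.206) lie to its left.

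Genes of antigen presentation by MHC class II were lower. Of 12 tested 11 were past 2-fold lower and 0 higher, with a median ratio of 0.149. *H2-Ab1*, a class II chain, was at 1141 against 8046 CPM (7.05-fold lower), with runs of 811 to 1628 (median 1020) against 6637 to 9413 CPM (median 7684). The invariant chain *Cd74* was at 2095 against 13951 CPM (6.66-fold lower), with runs of 1289 to 2917 against 12355 to 16383 CPM. The groups were far apart for both. The loading factors *H2-DMa* and *H2-DMb1* had ratios of 0.183 and 0.171, the class II master regulator *Ciita* 0.0437 (1.58 against 36.1 CPM), and the costimulators *Cd80* and *Cd86* 0.211 and 0.304. All 10 genes of conventional dendritic cells that were tested were also past 2-fold lower.

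Genes of resident-type macrophages were lower in 11 of 16 and higher in 0, with a median of 0.206. *Lyve1*, a hyaluronan receptor of vessel-associated macrophages, was at 0.607 against 29.6 CPM, and the mannose receptor *Mrc1* at 75.3 against 530 CPM (7.04-fold lower), with runs of 8.24 to 174 against 343 to 889 CPM. The C-type lectins *Mgl2*, *Clec10a* and *Clec4b1* were among the 12 genes with the lowest ratios; *Mgl2* was at 8.49 against 249 CPM (29.4-fold lower), with runs of 1.26 to 34.3 against 148 to 477 CPM. For all of these 12, at 6.94 to 29.4-fold lower, the runs did not overlap, but they too were ranked on the counts of these runs. Not every gene of the resident list followed: the folate receptor *Folr2* was at 1.39 and the platelet factor *Pf4* at 1.01.

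Monocyte genes were past 2-fold lower in 4 of 11 and higher in 1. *Ccr2*, the receptor that brings monocytes into tissue, was at 28.9 against 266 CPM (9.20-fold lower), with runs of 0 to 75.7 against 181 to 449 CPM, and *Plac8* had a ratio of 0.159. Chemokines and cytokines were past 2-fold lower in 16 of 35 and higher in 1, the median being 0.581. *Ccl8* was at 239 against 1660 CPM (6.94-fold lower), and *Ccl4*, *Il1b* (0.283), *Cxcl2* (0.383), *Ccl7* (0.354) and *Il6* (0.187) were lower in all runs. The higher gene was *Il18bp* (3.97), which neutralizes interleukin 18; against comparison cells with 0 *Gpnmb* 4 were higher. Interferon-induced genes were level as a list (median 1.03), with 1 of 21 higher (*Usp18*, a call lost after thinning) and 5 lower, among them *Cxcl9* (0.0685) and *Cxcl10* (0.309). Complement and Fc receptor genes were also level (median 1.01), with *C3* past 2-fold higher (2.44).

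The study asked about macrophage coagulation factors and suppression, and 2 lists bear on that. Of 18 coagulation and platelet-binding genes tested, 1 was past 2-fold higher and 2 lower, with a median of 1.04, or 4 and 3 when each cell was scaled and weighted equally. The higher gene was *F7* (factor VII), at 68.2 against 24.9 CPM (2.74, 2.49 to 3.01), with runs of 48.5 to 82.7 (median 71.1) against 15.8 to 33.5 CPM (median 25.3) and no overlap. *F10* (factor X), whose product is activated by factor VII with tissue factor, was at 57.6 against 41.1 CPM (1.40, 1.27 to 1.54). It was higher in 5 of 6 runs, but the groups overlapped, with runs of 16.5 to 83.1 against 20.7 to 60.4 CPM. The exception, at 16.5 CPM (run ratio 0.273), was the run with 8 cells. Tissue factor itself (*F3*) was lower, at 1.21 against 5.48 CPM. After thinning to 5000 UMIs per cell, *F10* was detected in 23.2% of these cells and 8.74% of the others, and *F7* in 19.0% and 5.34%. No gated T cell carried a UMI of either, but the 79 cells held only 662346 UMIs in all. At that depth, and with *Csf1r* and *C1qa* required to be 0, this does not measure free RNA. The receptor gene *F2rl1* had 1 UMI in the 429 cells, so its level was not measurable at this depth.

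Of 15 immunosuppressive and checkpoint genes, which the study chose on these samples and which are therefore not independent evidence of a direction, 1 was past 2-fold higher (*Vegfa*, just at the threshold) and 6 lower. The *Vegfa* call was lost against comparison cells with 0 *Epcam* and *Mki67* and with the highest 5% of doublet scores left out. *Il10* was at 23.2 against 144 CPM (0.161), *Lag3* at 0.487 and *Lrrc32*, which holds latent TGF-β on the surface, at 0.242. *Lilrb4a* was at 0.507 and lower in all runs, *Thbs1* was level at 1.09 with overlapping runs, and *Cd274* (PD-L1) was at 1.41.

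Markers of other cell types were counted because a droplet can hold more than 1 cell or free RNA. Of the 10 T and NK cell markers 7 were at 0 in these cells, and the summed level was 6.55 against 27.5 CPM, with runs of 0 to 10.7 CPM. Fibroblast markers were past 2-fold lower in 6 of 6, and tumor epithelial markers in 9 of 9 (summed 69.3 against 470 CPM), but the rule set *Epcam* to 0 in these cells and not in the others. The same holds for the cycling markers, 7 of 8 of which were lower. When the comparison cells too were held to 0 *Epcam* and *Mki67*, 3 of 6 epithelial and 2 of 7 cycling markers remained past 2-fold lower, and the number of lower genes overall fell from 1326 to 848. Of 5 tested endothelial markers, *Kdr* was higher (3.14) and 2 were lower, and 3 of the 7 listed were at 0. After thinning only 2 endothelial markers had enough UMIs to be tested, of which 1 was higher and 0 lower. Of 4 tested neutrophil markers 2 were lower and 1 higher: *S100a8* was at 18.2 against 7.05 CPM (2.58) and higher in 6 of 6 runs, a call lost when each cell was weighted equally, while its partner *S100a9* was at 0 UMIs. Of 12 heat shock and dissociation genes, 3 were past 2-fold lower and 0 higher. Of the gated T cells, 72.2% carried a UMI of *Ctsd*, 27.8% of *Spp1* and 22.8% each of *Fabp5* and *Ctsl*, at a median of 4797 UMIs. None carried *Gpnmb*, *Trem2* or *Htr2b*. These shares do not measure free macrophage RNA, because the gate required 0 *Csf1r* and *C1qa* and T cells may transcribe some of these genes. Their source was not tested.

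A further 3 macrophage gates in the same matrix gave reference levels, and these groups were likewise picked by their RNA. All had UMIs of *Csf1r*, *C1qa* and of both genes in their name (at least 2 of *Thbs1*). The 130 *Lyve1 Cd209f* cells (median 10420.5 UMIs) carried 1890 CPM of *Ctsl* and 2250 CPM of *Ctsd*, the 299 *Retnla Ear2* cells (median 17549 UMIs) 377 and 1574 CPM, and the 804 *Thbs1 Vegfa* cells (median 10355.5 UMIs) 458 and 1406 CPM. Their *Fabp5* levels of 191, 227 and 237 CPM were all far under the 4483 CPM of the *Gpnmb Spp1 Trem2* macrophages. *Hmox1* was not set apart in this way: the *Lyve1 Cd209f* cells were at 1651 CPM, next to 1658 CPM. *Apoe* was at 22152 CPM in the *Lyve1 Cd209f* cells, 1925 in the *Retnla Ear2* cells and 14216 in the *Thbs1 Vegfa* cells.

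MHC class II was low in only some of these groups. *Cd74* was at 4438 CPM in the *Lyve1 Cd209f* cells, 13031 in the *Retnla Ear2* cells and 15429 in the *Thbs1 Vegfa* cells, against 2095 CPM in the *Gpnmb Spp1 Trem2* macrophages. The coagulation genes were highest in the *Retnla Ear2* cells, at 185 CPM for *F10* and 134 CPM for *F7*, above the 57.6 and 68.2 CPM of the *Gpnmb Spp1 Trem2* macrophages.

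The 429 cells were not uniform. *Arg1* was carried by 52.9% of them, and the 43 cells with the most held 66.5% of its UMIs; *Atp6v0d2* was carried by 53.6%. *Mfge8* and *Mmp12* were more concentrated, detected in 39.9% and 39.4% with 87.7% and 87.2% of the UMIs in 43 cells. *Ctsd*, by contrast, was in 99.8% of the cells, with 10th and 90th percentiles of 2572 and 20699 CPM, and *Fabp5* in 96.04%, at 232 and 10261 CPM. *Cd74* ran from 34.5 to 6972 CPM between the same percentiles.

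Clustering of the 429 cells gave 3 sub-clusters, each with cells from all 6 runs. Their genes below were part of the clustering, so the values describe and test nothing. The first, of 192 cells (median 21965.5 UMIs), was led by *Ctla2a*, *Mfge8*, *Cela1*, *Mmp12* and *Serpinb6a*. The second, of 141 cells (15131 UMIs), was led by *Plpp3*, *Mefv*, *Cd109*, *Hp* and *S100a8*, and the third, of 96 cells (15266 UMIs), by *Il1r2*, *H2-Eb1*, *H2-Aa*, *Ly6c2* and *H2-Ab1*.

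The first sub-cluster had the highest cathepsin levels. *Ctsl* was at 6230, 4676 and 2082 CPM in the 3 sub-clusters in that order, *Ctsd* at 14425, 11045 and 6272 CPM, and *Atp6v0d2* at 204, 141 and 65.5 CPM. Other genes were highest in the third. *Ccr2* was at 3.77, 23.3 and 98.0 CPM, *Il1b* at 187, 487 and 1341 CPM, and *Cd74* at 798, 682 and 7148 CPM. *F10* was at 27.6, 76.6 and 107 CPM, whereas *F7* was highest in the second at 41.0, 110 and 80.0 CPM, as was *Thbs1* at 219, 831 and 580 CPM. The third sub-cluster held 12.5 to 33.3% of the *Gpnmb Spp1 Trem2* macrophages of a run, the lowest share being 1 of 8 cells. At a coarser resolution the cells stayed in 1 cluster.

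**Figure D4:**
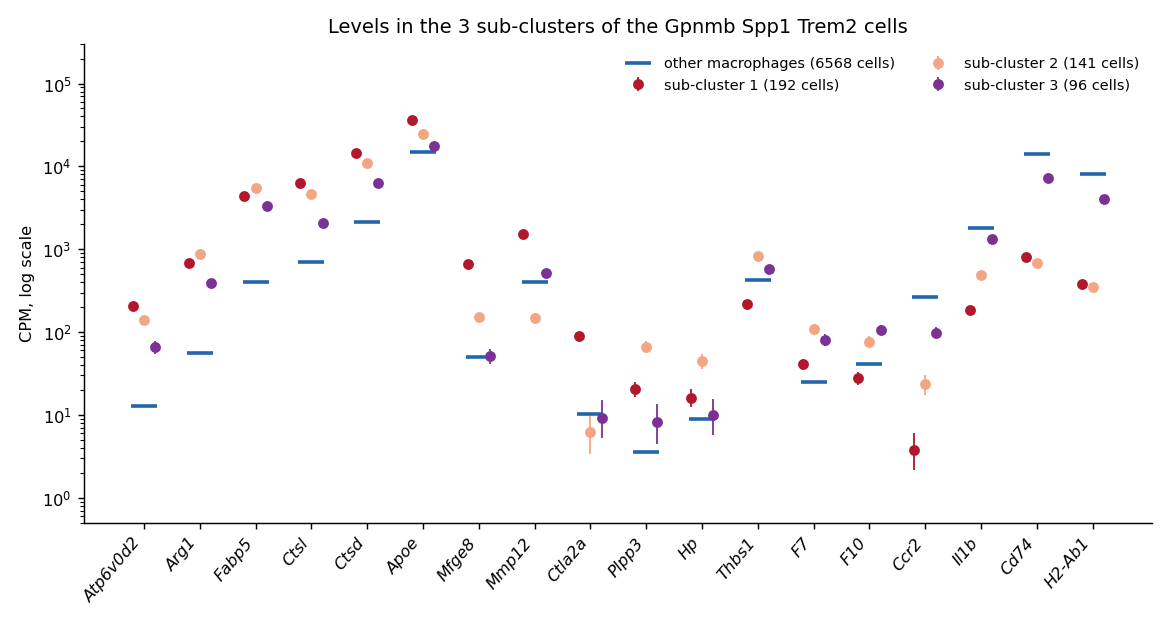
CPM (log axis) of selected genes in the 3 sub-clusters of the *Gpnmb Spp1 Trem2* macrophages (192, 141 and 96 cells), with error bars for the exact 95% Poisson interval and a dash for the other macrophages. *Ctsl* falls from 6230 to 2082 CPM from the first to the third sub-cluster, and *F10* is higher in the third at 107 CPM than in the first at 27.6 CPM.

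Levels on either side of the cut at 2 *Gpnmb* UMIs were also listed. The groups were set by the rule's own gene and differed in depth, so they cannot tell a graded population from a mixture. The 90 cells that met the other criteria but had 1 *Gpnmb* UMI (median 10552 UMIs per cell) were at 787 CPM of *Fabp5*, 1095 of *Ctsl* and 21.0 of *Atp6v0d2*. The 43 cells with exactly 2 (median 6808 UMIs) were at 2207, 1740 and 47.3 CPM, and the 386 cells with 3 or more (median 18076 UMIs) at 4612, 5115 and 164 CPM. *Arg1* did not rise at each step, at 456, 417 and 695 CPM.

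The same gate was then applied to the cells selected with CD4 and CD8 beads, which the rule did not use and which also held macrophages. It found 294 of 22806 cells (1.29%), which were 28.9% of the macrophages there, set against 723 others. These were spread unevenly, since 1 barcode run held 246 of the 294 (83.7%) and another held 0. The median depth was 24317.5 UMIs against 14113. The comparison cells also differed from those of the CD11c matrix: 166 of the 723 (23.0%) carried a *Gpnmb* UMI, against 5.57% in the CD11c matrix. This matrix too pooled 6 samples without a key, so each matrix was 1 sample and their values are set side by side without a test.

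Past 2-fold higher were 65 of 8752 genes (0.743%) and past 2-fold lower 650 (7.43%), with a median ratio of 0.895 (-0.16 on the log2 scale). Higher genes were 9.09% of those past 2-fold by summed counts and 22.4% when each cell was scaled and weighted equally. Of the 383 genes higher in the CD11c matrix, 288 were tested here, 270 had a ratio above 1 and 52 were past 2-fold (18.1% of those tested, and 80% of the 65). Of the 1326 lower genes 592 were tested, and 427 were past 2-fold lower (72.1%, and 65.7% of the 650). Most of the 288 higher genes thus had a ratio above 1 here, and most of the 592 lower genes were past 2-fold lower, while the higher side was smaller. The share of all 8752 tested genes with a ratio above 1 was not counted, but their median ratio was under 1. The same rule picked the cells in both matrices, and how far this alone sets a shared direction was not tested.

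**Figure D5:**
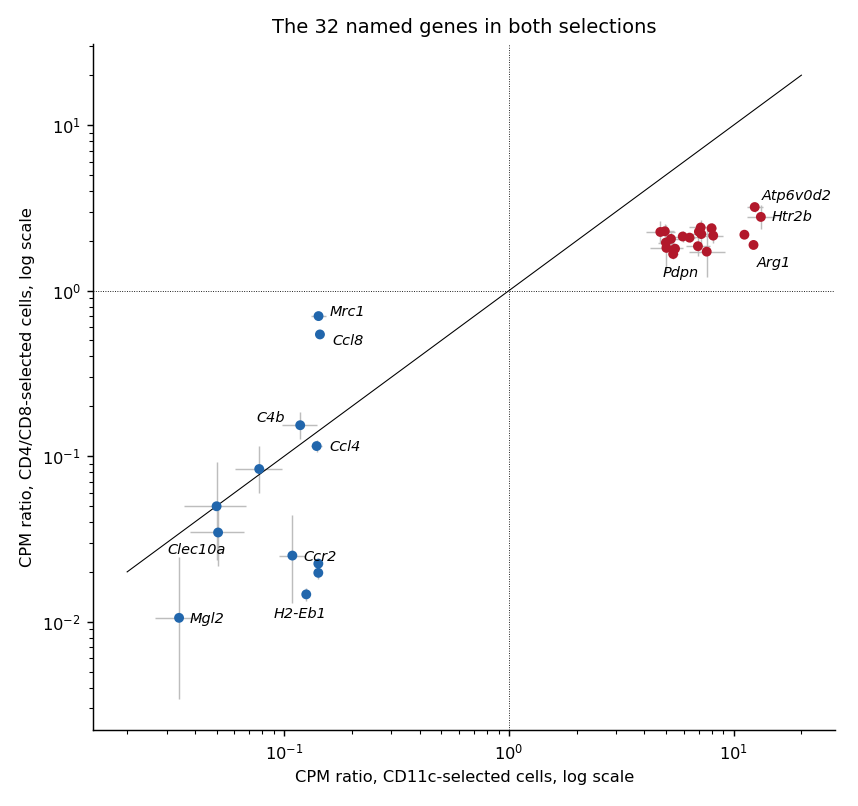
Ratio of CPM in *Gpnmb Spp1 Trem2* macrophages over CPM in other macrophages for the named genes, in the CD11c-selected matrix and in the CD4/CD8-selected matrix (log axes), with 95% counting intervals. All 20 genes chosen as higher are above 1 in both matrices, with ratios of 1.66 to 3.20 in CD4/CD8-selected cells, and all 12 chosen as lower are under 1.

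Of the 20 genes named as higher, all 20 had a ratio above 1 in CD4/CD8-selected cells and 13 were past 2-fold. *Atp6v0d2* was at 392 against 123 CPM (3.20), *Htr2b* at 51.6 against 18.5 CPM (2.79), *Ctsl* at 2855 against 1258 CPM (2.27) and *Fabp5* at 3655 against 1680 CPM (2.18). *Arg1*, at 722 against 383 CPM (1.89), and *Ctsd*, at 14343 against 8008 CPM (1.79), did not reach 2-fold. The levels of the other macrophages were uneven too: over the runs their *Fabp5* was 226 to 2872 CPM with a median of 335, and their *Arg1* 0 to 737 CPM with a median of 27.4.

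These ratios rested on the run with 246 cells. Within that run alone the *Arg1* ratio was 1.05 and the *Fabp5* ratio 1.22, and without it they were 17.5 and 10.2, from 48 cells. On the lower side, MHC class II stood out here too, with *H2-Ab1* at 98.3 against 4380 CPM and *Cd74* at 194 against 8037 CPM, and *Ccr2* at 1.68 against 66.9 CPM. *Mrc1* (0.701) and *Ccl8* (0.544) were the 2 of the 12 lower genes that did not reach 2-fold. *F10* was at 13.2 against 12.4 CPM (1.06) and *F7* at 13.7 against 10.4 CPM (1.32), so neither was past 2-fold here.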

How the data were processed

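Single cells from digested tumors were bead-selected, run on the 10x Genomics platform and, per the paper's methods, frozen and thawed before loading. Per the submitters' processing notes, Cell Ranger 3.0.2 and mm10 were used. The deposited files used here held raw UMI counts per gene and cell barcode in 2 matrices, 1 per selection, each pooling 6 samples; a key from barcode to sample was not used here. Each matrix was therefore 1 sample, so no test was run, no p-value is given and genotypes were not compared.

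Barcodes were used if 200 or more genes were detected (11639 of 11980 and 22806 of 23101 barcodes). Counts were summed over the cells of a group and divided by the group's total UMIs (CPM, scaled to 1e+06). Genes with at least 100 UMIs over both groups were compared, and a gene was called past 2-fold at a ratio of 2 or more, or of its inverse or less. Intervals are exact at 95% (Poisson for CPM, conditional binomial for ratios, Clopper-Pearson for shares). Genes were named if they were among the 20 highest or 12 lowest ratios and detected in at least 25% of the higher group, belonged to a listed pathway or marker set, led a sub-cluster, or were called and held the promoter motif. The rule for the cells, the lists and the named genes was chosen with earlier results of these data known.

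T cells were cells with at least 3 UMIs of *Cd3e*, *Cd3d*, *Cd3g* and *Trbc2* together and 0 of *Csf1r* and *C1qa*. The 429 cells were sub-clustered with the Leiden method at resolution 0.5. The automatic cutoff of Scrublet called 0 doublets among 11639 cells, which cannot be taken as a working call. No doublets were removed, and leaving out the highest 5% of its scores was tried instead. On simulated counts for the CD11c comparison (11219 genes) the ratio step recovered 99% of 100 genes changed 4-fold and called 29 of 11020 unchanged genes. The simulated counts held counting error only, with no variation between cells, runs or mice. They check the calculation and not how often real genes would be called wrongly. Python 3.11.15, numpy 2.4.6, scipy 1.17.1, scanpy 1.11.5, leidenalg 0.10.2, scikit-learn 1.9.0 and matplotlib 3.10.9 were used. Alternatives tried were the *Gpnmb* minimum, the comparison cells, the scaling, the filters, thinning, and leaving out barcode runs.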

Additional observations from a re-analysis of the deposited data

Results flagged for a closer look

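*Kdr*, the VEGF receptor of endothelial cells, had a ratio of *Gpnmb Spp1 Trem2* macrophages over other macrophages of 3.14 in CD11c-selected cells (14.8 against 4.71 CPM, from 122 UMIs) and of 0.244 in CD4/CD8-selected cells (from 13 UMIs), past 2-fold in opposite directions. The difference between the selections was not tested, since each was 1 sample. Another endothelial marker, *Pecam1*, had ratios of 0.595 and 0.210, and *Emcn*, *Tie1* and *Cldn5* had 0 UMIs in the 429 CD11c-selected *Gpnmb Spp1 Trem2* macrophages.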

How the results depend on the processing

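No paired analysis was possible because the matrices used here carry no key from cells to samples, so replicate numbers could not be used and no test was run. The share of CD11c-selected cells that met the rule (3.69%) was 4.46% with at least 1 *Gpnmb* UMI, 3.08% with at least 4, and 2.61 to 4.13% when each barcode run was left out, the lowest value being without the run that held 45.0% of the cells. Among the 7370 cells with at least 5000 UMIs it was 5.21% at full depth and 5.02% after thinning to 5000 UMIs. The 383 higher and 1326 lower genes became 971 and 2056 with no filter beyond 1 UMI. Lower genes numbered 848 against comparison cells with 0 *Epcam* and *Mki67* and 786 after thinning. Leaving out a run gave 351 to 391 higher and 1122 to 1298 lower genes. All 32 named genes (31 after thinning) stayed past 2-fold in the same direction in the CD11c matrix under every alternative run. They had been picked for their extreme ratios in this matrix, so this was likely from the outset. Of their 543 ratios under the alternatives, 204 lay outside the counting interval of the main ratio and 0 were reversed. In CD4/CD8-selected cells, the 65 higher genes became 218 by the mean over cells, 232 against comparison cells with 0 *Epcam* and *Mki67*, 248 against those with 0 *Gpnmb*, 154 without the run that held 83.7% of the cells, and 4 within that run, where lower genes fell from 650 to 227. Within that run the ratios of *Tmeff1* (0.859), *Pdpn* (0.984), *Mrc1* (1.03) and *Ccl8* (1.12) were reversed. The comparisons with 0 *Gpnmb*, without that run and within it in CD4/CD8-selected cells, and the centring on the median ratio, were chosen after seeing the data. Sub-clusters numbered 1 at resolution 0.3 and 4 at 0.8. The causes of these changes were not tested. With 1 sample per selection, differences between mice or genotypes could not be seen, and genes under 100 UMIs were not compared.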
